A study of Homo sapiens with 2 samples.

Results

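PAX5 binding was described at the human antigen receptor loci, with the immunoglobulin loci IGH, IGK and IGL set against the T-cell receptor loci TRA with TRD, TRB and TRG. A site belonged to a locus when the summit of its peak lay inside an approximate window set around the locus on the genome build hg19. The 6 windows held 89 of the 21361 PAX5 peaks in the deposited list, 78 in the immunoglobulin loci and 11 in the T-cell receptor loci. By locus, 40 peaks lay in IGH, 1 in IGK, 37 in IGL, 11 in TRA with TRD, 0 in TRB and 0 in TRG. The peaks came from chromatin immunoprecipitation and sequencing (ChIP-seq) of the established leukaemia cell line NALM6, a model of human B-cell precursors. It is a single clonal line with its own immunoglobulin rearrangements, whose place and copy number were not analysed here. The labels give no treatment for either sample and the same culture, 4 days in RPMI lacking phenol red, with serum at 10% and glutamine at 2 mM. An Abcam antibody against PAX5 was used for 1 ChIP sample, and 1 input control without antibody served as its reference. The control carries NALM6 as its cell line and the additional name RXL, which the sources used here do not explain. Whether its cells match those of the ChIP in every respect cannot be told from the labels, and every fold and background rests on it. No replicate is given for either sample, so every interval below covers counting error only and no p-value was computed.

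PAX5, a transcription factor of the paired-box family, commits lymphoid progenitors to the B-cell lineage and maintains B-cell identity. Immunoglobulin heavy chains are encoded at IGH and light chains at IGK and IGL. Each locus is assembled in developing B cells by V(D)J recombination, which joins separate V, J and, at the heavy chain, D segments upstream of the constant genes. In mice, PAX5 is required for the contraction of the heavy chain locus that brings distant V segments near the D and J segments. The T-cell receptor loci have the same kind of segments and are assembled in developing T cells, where PAX5 is normally silent.

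For each peak, the deposited table gives the ChIP reads over its summit, multiplied by 0.5503 to match the smaller control, and the fold enrichment, which is this number over the local control background with 1 added to both. The ChIP pool held 46190180 tags and the control 25416858. Background in the control, for which MACS2 takes the highest of its estimates over several widths, was recovered from the scaled reads and the fold. The folds are the authors' and serve here for description and ranking inside the list. Over all 21361 peaks the median fold was 3.89, the median summit held 61 ChIP reads and the median control background was 8.0 reads.

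Peaks were denser in the immunoglobulin loci than in the T-cell receptor loci. The 3 immunoglobulin windows held 23.9 peaks per Mb over 3.26 Mb (exact Poisson 95% interval 18.9 to 29.9), and the 3 T-cell receptor windows held 6.83 per Mb over 1.61 Mb (3.41 to 12.2). Density was thus 3.50 times as high in the immunoglobulin loci (exact conditional 95% interval 1.85 to 7.31). Chromosomes 1 to 22 and X averaged 7.25 peaks per Mb, and the immunoglobulin loci exceeded the rest of them 3.31-fold (2.62 to 4.13). For the T-cell receptor loci the ratio to the rest of the chromosomes was 0.942, with an interval of 0.470 to 1.69 that includes 1. These intervals treat peaks as independent, although many lay close together, and are therefore too narrow.

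The excess came from 2 of the 3 immunoglobulin loci. In IGL, the window on chromosome 22 from 22380001 to 23270000, the density was 42.6 peaks per Mb (30 to 58.7). In IGH, on chromosome 14 from 106030001 to 107290000, it was 31.7 per Mb (22.7 to 43.2). These densities did not differ beyond counting error, with a ratio of IGL over IGH of 1.34 (0.834 to 2.15). In IGK, on chromosome 2 from 89150001 to 90280000, it was 0.885 per Mb (0.0224 to 4.93), with an upper bound below the average of the chromosomes, and 0.0756 times that of TRA with TRD (0.00176 to 0.520). Without IGK, the ratio of immunoglobulin over T-cell receptor density was 5.29 (2.80 to 11.0).

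The T-cell receptor peaks all lay in 1 locus. TRA with TRD, on chromosome 14 from 22090001 to 23030000, had 11.7 peaks per Mb (5.84 to 20.9), which was 1.61 times the rest of the chromosomes with an interval of 0.806 to 2.89. TRB, on chromosome 7 from 141990001 to 142520000, held 0 peaks, which allows a density of up to 5.66 per Mb (3 counts). TRG, on chromosome 7 from 38270001 to 38410000, also held 0 peaks, but its window of 0.14 Mb allows up to 21.4 per Mb. Empty stretches of these sizes were common. Of 21645 consecutive windows of 0.14 Mb on chromosomes 1 to 22 and X, 63.8% held no summit. The same was true of 37.6% of 5710 windows of the length of TRB. Unassembled stretches were not taken out of these windows, which raises the shares.

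**Figure D1:**
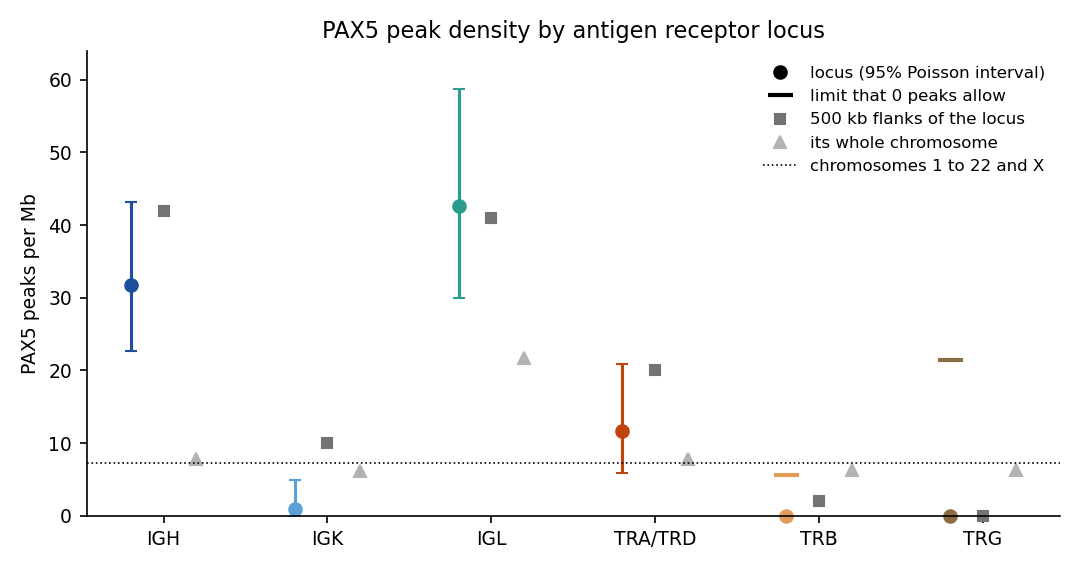
PAX5 peaks per Mb (vertical axis) for each of the 6 loci, with the exact Poisson 95% interval for loci that held peaks and a dash for the density that 0 peaks allow. Squares give the flanks of 500 kb, on both sides except for IGH. Triangles give the whole chromosome and the dotted line chromosomes 1 to 22 and X (7.25 per Mb). IGH (31.7) and IGL (42.6) lie well above their chromosomes but beside flanks of 42 (near side only) and 41 per Mb.

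Densities of IGH and IGL were not resolved from those of their flanks. The 500 kb before IGH held 21 peaks, so that density in IGH was 0.756 times that of its flank (0.435 to 1.35). On the far side no peak is listed beyond the last one of IGH on chromosome 14, and the length of sequence left there was not taken from a genome, so that side was left out. Counted as 500 kb with 0 peaks, an alternative chosen after seeing the data, it turned the ratio to 1.51 (0.870 to 2.70). Whether the chromosome extends that far was not checked, and a shorter empty side would give a lower ratio. IGL had 42.6 peaks per Mb against 41 in its flanks, a ratio of 1.04 (0.647 to 1.66). TRA with TRD had 11.7 against 20 in its flanks, a ratio of 0.585 (0.253 to 1.28). For all 3 of these loci the interval of the ratio to the flanks includes 1, for IGH with either flank. Against the rest of their own chromosomes, IGH was 4.29 times as dense (3.03 to 5.90), IGL 2.01 times (1.40 to 2.79) and TRA with TRD 1.52 times (0.753 to 2.73). Dense windows of such size were few in the genome. At least 40 summits lay in 2.46% of 2396 windows of 1.26 Mb, and at least 37 in 1.12% of 3476 windows of 0.869 Mb. Unassembled stretches were not taken out of these windows, which lowers the shares.

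For stronger sites the ratio of immunoglobulin over T-cell receptor density was lower in value, but its intervals were wide and overlapped that of all peaks, and the difference between ratios was not tested. A fold of at least 5 was reached by 21 of the 78 immunoglobulin peaks (26.9%, exact binomial 95% interval 17.5 to 38.2) and by 5 of the 11 T-cell receptor peaks (45.5%, 16.7 to 76.6), against 25% of all peaks. Density at this fold was 6.44 per Mb in the immunoglobulin loci and 3.11 in the T-cell receptor loci, a ratio of 2.07 whose interval of 0.761 to 7.04 includes 1. Among the 10% of all peaks with the highest −log10 q there were 7 immunoglobulin peaks, or 8.97%, and 4 T-cell receptor peaks, or 36.4%. Their densities were 2.15 and 2.48 per Mb, a ratio of 0.865 (0.220 to 4.03). A fold of at least 10, which 1.72% of all peaks reached, was found at 2 IGH peaks, 1 IGL peak and 1 peak of TRA with TRD. The ratio of strong sites was not resolved at these small counts.

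**Figure D2:**
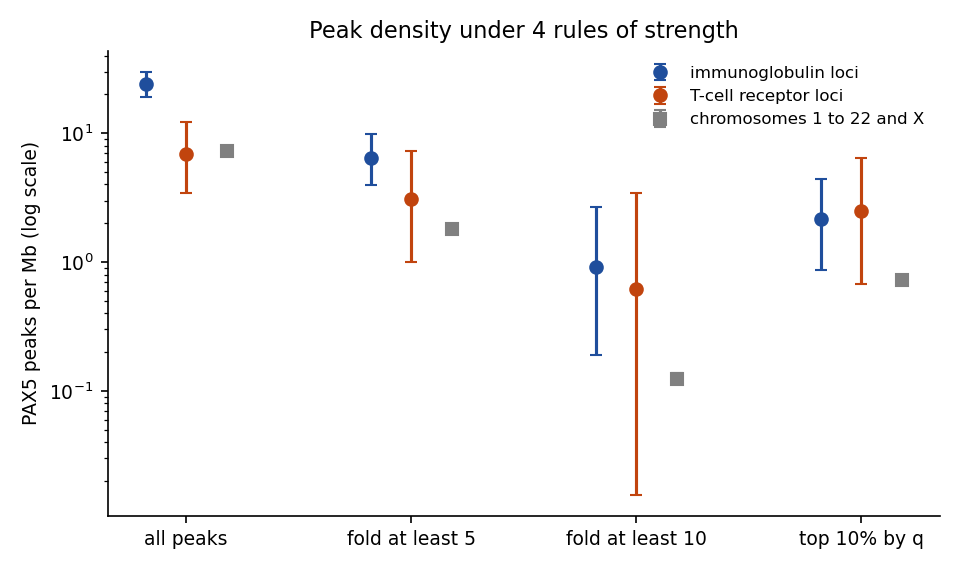
Peaks per Mb (log scale) in the immunoglobulin loci, the T-cell receptor loci and chromosomes 1 to 22 and X for all peaks, a fold of at least 5, a fold of at least 10 and the top 10% by −log10 q, with exact Poisson 95% intervals. The immunoglobulin loci stand above the T-cell receptor loci for all peaks (23.9 against 6.83), while the intervals overlap under the other 3 rules.

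Median folds of the 3 loci with several peaks lay on both sides of the 3.89 of all peaks. The median fold was 3.46 in IGH (range 1.86 to 15.5), 4.51 in IGL (2.58 to 10.6) and 3.98 in TRA with TRD (2.51 to 13.7). A fold of at least 5 was found at 6 of 40 IGH peaks (15%, 5.71 to 29.8) and at 15 of 37 IGL peaks (40.5%, 24.8 to 57.9), beside the 25% over all peaks. At a fold of at least 7 the share in IGL was 8.11%, against 7.94% of all peaks. Summits of TRA with TRD held the most reads, with a median of 85 ChIP reads, against 60 in IGH and 72 in IGL. Peaks covered 1.5% of the IGH window and 2.12% of IGL, against 0.709% of TRA with TRD and 0.325% of chromosomes 1 to 22 and X. All 89 summits were still present in the cleaned list that the authors also deposited.

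**Figure D3:**
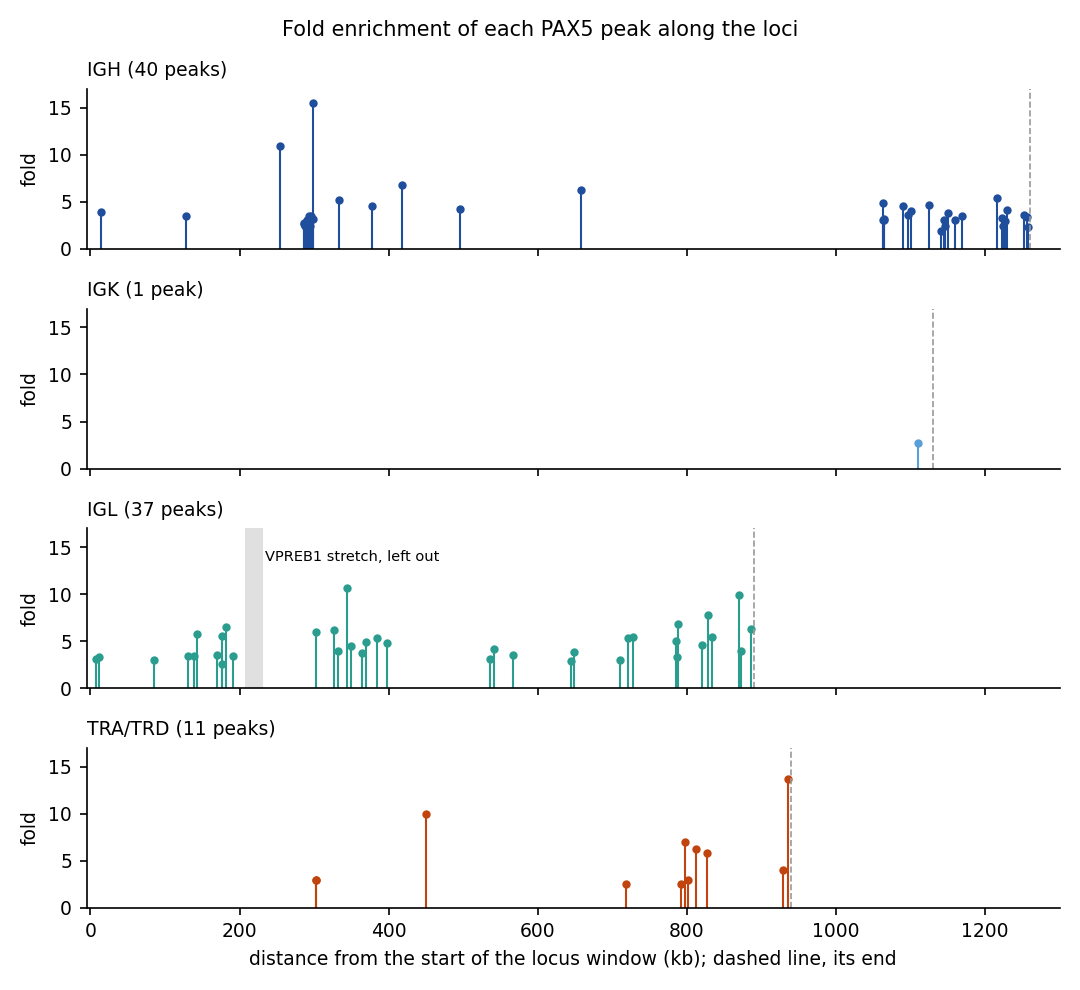
Fold enrichment (vertical axis) of each peak by the distance of its summit from the start of the locus window in kb, for the 4 loci that held peaks. The dashed line marks the end of the window and the grey bar the VPREB1 stretch left out of IGL. IGH peaks concentrate near 300 kb and beyond 1000 kb, IGL peaks spread over the whole window, and the strongest peak of TRA with TRD stands at the end of its window.

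IGH encodes the heavy chain, and in the RefSeq gene table its constant genes come first along the chromosome, then the J and D segments and last the 127 V segments and V pseudogenes. That table is on GRCh38.p14 and was used for names and order alone. Divided at an approximate border known for hg19, the 0.3 Mb part with the constant and J genes held 13 peaks, or 43.3 per Mb (23.1 to 74.1). The 0.96 Mb part with the D and V segments held 27, or 28.1 per Mb (18.5 to 40.9). The intervals overlapped, but both sites above a fold of 10 were in the constant and J part.

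The strongest IGH site lay on chromosome 14 from 106328079 to 106328935, next to the hand-set border between the J and D genes. Its summit at 106328378 held 198 ChIP reads (exact Poisson 95% interval 171 to 228), or 109 after scaling, and the control background was 6.07 reads, which gave a fold of 15.5. It ranked 27 by fold among all 21361 peaks. The second site, from 106284165 to 106285727, held 228 reads (199 to 260) over a background of 10.6, a fold of 10.9 and rank 219. It was 1563 bp wide and had more ChIP reads than any other IGH peak. The other 3 of the 5 highest folds were in the D and V part. They had 60 reads over 4.00 at 106447841 (fold 6.80), 39 over 2.59 at 106687771 (fold 6.26) and 105 over 9.90 at 107246304 (fold 5.39).

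The strongest IGH site belonged to the largest cluster of peaks in the 6 loci. Between summits 106316401 and 106329060, a span of 12.7 kb, 10 peaks followed each other at a median distance of 1181 bp. It was the ninth of them in order. The other 9 were weak, with folds between 2.39 and 3.51, and the control background ran from 5.00 to 9.0 reads across the whole cluster. Runs of this size were uncommon. Of 1524 runs of at least 3 peaks with gaps of 10 kb or less in the whole list, 27 held 10 peaks or more and the largest held 20. As background, the intron between the J segments and the constant gene of IgM carries the heavy chain intronic enhancer and the switch region of class switch recombination. Whether the cluster coincides with either was not placed here, since the hg19 annotation was not used.

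**Figure D4:**
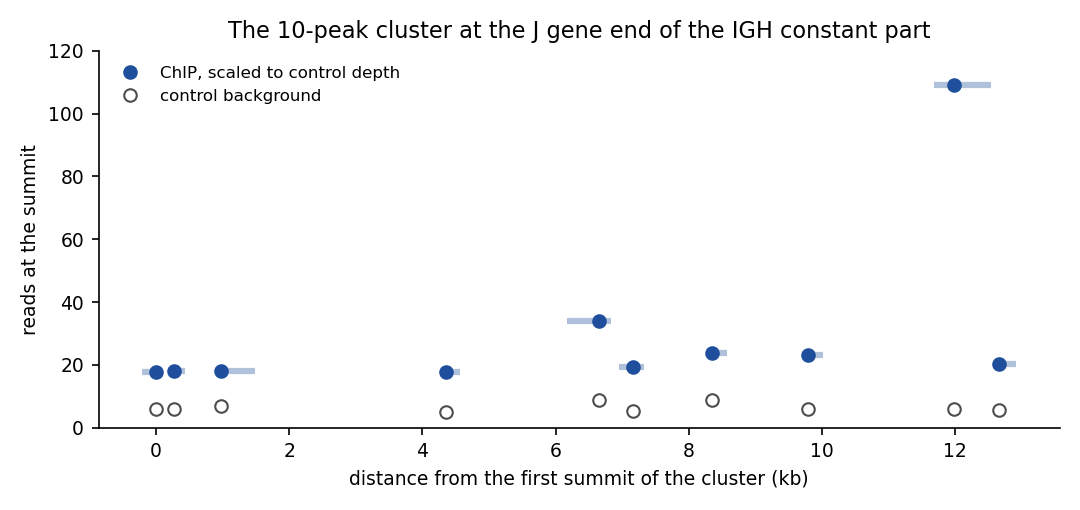
Reads at the summit (vertical axis) of the 10 peaks of the IGH cluster by distance from the first summit in kb. Filled points are ChIP reads scaled to control depth, with bars for the width of the peak, and open points are the control background. The peak with 109 scaled reads stands alone over 9 low peaks, while the background stays between 5.00 and 9.0 reads.

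The V part of IGH was divided by a long stretch without peaks. No summit was found over 405 kb between 106687771 and 107092766. Gaps at least this long made up 7% of the 21290 gaps between neighbouring summits on chromosomes 1 to 22 and X. Before it, 5 D and V peaks had folds between 4.20 and 6.80, over a median background of 4.00 reads. After it, in the stretch up to 107287542, 22 peaks had folds between 1.86 and 5.39, over a median background of 14 reads. Of these 22, 16 stood above the median background of all peaks, and the highest, at 107175246, had 181 ChIP reads over 32.0, a fold of 3.05. ChIP reads were also higher there, with a median of 91.5 after the gap, against 44 at the 5 D and V peaks before it. The part of the control background in these differences was not tested.

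Peaks beyond the gap formed 5 further clusters of at least 3 peaks. The first held 4 peaks within 2.12 kb, led by 107092766 with a fold of 4.88. It was followed by 3 peaks within 10.9 kb led by 107119944 (fold 4.57) and 5 peaks within 18.6 kb led by 107179950 (fold 3.82). In the cluster led by 107179950 the median control background was 24.0 reads. The remaining clusters held 5 peaks within 13.4 kb led by 107246304 (fold 5.39) and 3 peaks within 4.84 kb led by 107282700 (fold 3.63). The fourth of these 5 contained the widest IGH peak, of 1845 bp from 107251534 to 107253378, with a fold of 3.30 over a background of 22 reads. In all, 30 of 40 IGH peaks (75%) lay in clusters, against 28.8% of all peaks. A fixed gap of 10 kb catches more peaks where they are dense, and the share was not compared with stretches of equal density.

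IGK, the kappa light chain locus, held 1 peak. Of 2669 consecutive windows of its length, 1.13 Mb, on chromosomes 1 to 22 and X, 602 held no summit at all. Unassembled stretches were not taken out of these windows, so how rare such a low count is in assembled sequence was not resolved. The single IGK peak, on chromosome 2 from 90259472 to 90259768, held 48 reads (35.4 to 63.6) over a background of 9.0, a fold of 2.74 and rank 19256. It lay 20.4 kb before the end of the window, in the part with the distal V segments. The part with the constant and J genes and the proximal V segments held 0 peaks. For the 0.47 Mb of the proximal V segments this allows up to 6.38 peaks per Mb. In the 500 kb before the window 10 peaks were listed, the nearest at 89054013, 96.0 kb away. After the window the next summit was at 95723798, 5444 kb away. With both sides counted, density in IGK was 0.0885 times that of its flanks (0.00204 to 0.622). That ratio counts the empty side after the window as a full flank, while the empty side of IGH was left out. As background, the kappa V segments form a duplicated proximal and distal set, and the centromere follows.

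IGL, the lambda light chain locus, carried peaks along its whole length. In the gene table the 73 V segments and V pseudogenes come first, and J and constant genes alternate at the end. The V part of 0.829 Mb held 34 peaks, or 41.0 per Mb (28.4 to 57.3), and the 0.04 Mb with the J and constant genes held 3, or 75 per Mb (15.5 to 219). The median distance between neighbours was 9.82 kb and the longest 139 kb, from 22777262 to 22916109. In IGH the median distance was 4.66 kb and the longest 405 kb. Control background in IGL ranged from 2.12 to 15.0 reads with a median of 7.87, against 2.48 to 32.0 with a median of 7.32 in IGH.

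The strongest IGL site was on chromosome 22 from 22723596 to 22724011 in the V part. It held 165 ChIP reads (141 to 192) over a background of 7.65, a fold of 10.6 and rank 278. The second was the 1764 bp peak from 23248847 to 23250610, in the part with the J and constant genes, with 124 reads over 6.0, a fold of 9.89 and rank 397. These folds were close, and counting error does not order them. Next came 23208099 with 104 reads over 6.53 (fold 7.74), 23167906 with 89 over 6.30 (fold 6.85) and 22562512 with 140 over 11.0 (fold 6.50). The widest IGL peak, also in the part with the J and constant genes, spanned 3636 bp from 23263504 to 23267139 with a fold of 6.33. It ranked 6 by width among all peaks of the list. Peaks covered 15.1% of the part with the J and constant genes, against 1.49% of the V part.

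Clusters held 3 to 5 peaks in IGL, as did those of IGH apart from its run of 10. With runs cut at the window borders, they contained 14 of 37 peaks (37.8%) in 4 groups, all in the V part. The share over all peaks was 28.8%, from runs that were not cut. The largest, 5 peaks within 20.5 kb from 22550038 to 22570577, was led by 22562512. The others held 3 peaks each, led by 22522356 (fold 5.72), 23167906 (fold 6.85) and 23208099 (fold 7.74). In windows widened by 50 kb, clusters of IGL held 22 peaks, some of them outside the window used here. The share was not compared with stretches of equal density.

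Strong binding continued past the IGL window on the side of the constant genes. The first peak outside, 1.14 kb beyond the end, had a fold of 2.95, and the last inside, at 23266165, a fold of 6.33. The next were at 23274143 with 156 reads over 7.94 (fold 9.71) and at 23277899 with 212 reads over 11.0 (fold 9.80), 4.14 and 7.90 kb beyond the end. At the start of the window, a peak 3.04 kb outside had a fold of 4.66, and the first inside, at 22386908, a fold of 3.15. The stretch from 22589001 to 22610000 around VPREB1, a surrogate light chain gene that is not part of the lambda segments, was left out of the IGL counts. It held 6 peaks, led by 22598958 with 231 reads over 11.7 (fold 10.1).

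TRA with TRD encodes the alpha and delta chains of the T-cell receptor, and the constant gene of the alpha chain comes last in the gene table. No peak was found in the first 302 kb of the window. The strongest site lay on chromosome 14 from 23024953 to 23026256, 4.63 kb before the end of the window. It held 248 reads (218 to 281) over a background of 9.0, a fold of 13.7 and rank 62, and its read count was above that of every immunoglobulin peak. The nearest of those, the IGH site with 228 reads, had an overlapping interval. The peak at 23019303 (85 reads over 11.0, fold 3.98) and one just outside, 0.755 kb beyond the end (66 reads over 9.45, fold 3.57), lay near the strongest site. By gene order this end of the window is the side of the alpha constant gene, whose hg19 position was not looked up.

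The second site of TRA with TRD stood alone, at 22539420, with 198 reads (171 to 228) over a background of 10.0, a fold of 9.996 and rank 369. Its neighbours were 146525 bp before and 268507 bp after it. The other sites with a fold of at least 5 lay together between 22887876 and 22917524. They had 125 reads over 9.0 at 22887876 (fold 6.98), 224 over 19.0 at 22901714 (fold 6.21) and 42 over 3.15 at 22917524 (fold 5.81). The first of them led the single cluster inside the window, 3 peaks within 9.90 kb from 22881456 to 22891358. Clusters cut at the window borders thus held 3 of 11 peaks (27.3%). The 28.8% of all peaks rests on runs that were not cut. Uncut, the peaks at 23019303 and 23025372 would form a further cluster with the peak just outside, at 23030755. In windows widened by 50 kb, clusters of TRA with TRD held 6 peaks.

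TRB and TRG, which encode the beta and gamma chains, were also poor in peaks around the loci. The flanks of TRB held 2 peaks in 1 Mb, and the nearest summits were 552 kb before and 392 kb after its window. The flanks of TRG held 0, with the nearest summits 547 kb before and 1238 kb after it. Chromosome 7 as a whole had 6.25 peaks per Mb.

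Across the loci, high ChIP signal was reached over different control backgrounds. Median background was 7.76 reads at the immunoglobulin peaks and 11.0 at the T-cell receptor peaks. Of the 4 members with a fold of at least 10, the background was 6.07 and 10.6 reads at the IGH sites, 7.65 at the IGL site and 9.0 at the site of TRA with TRD. None of these was among the high backgrounds of the last stretch of IGH. The fold divides by the background, so choosing sites by fold selects against high backgrounds.

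**Figure D5:**
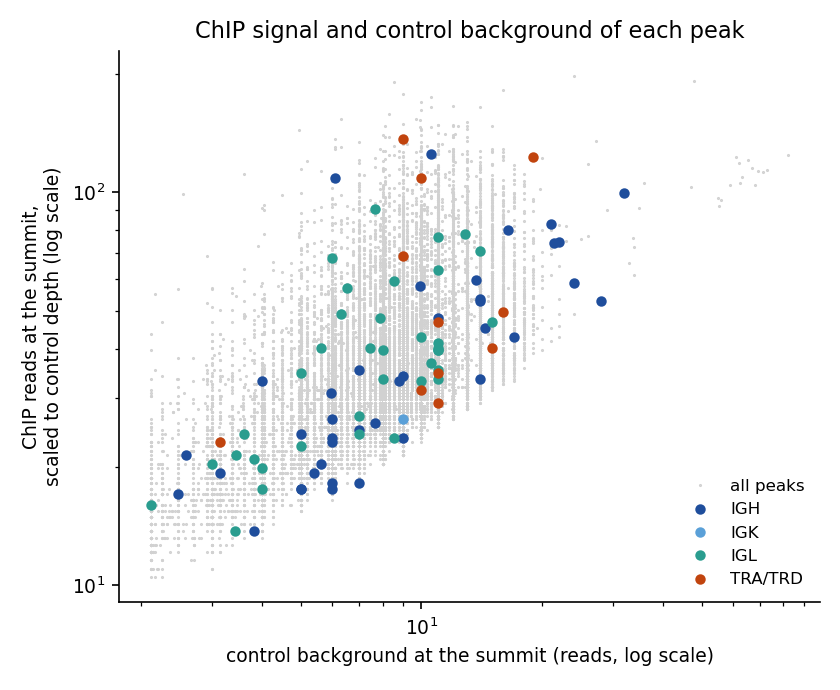
ChIP reads at the summit scaled to control depth (vertical axis, log scale) against the control background in reads (horizontal axis, log scale) for the peaks of IGH, IGK, IGL and TRA with TRD over all peaks in grey. IGH peaks run from backgrounds of 2.48 to 32.0 reads, while the IGL peaks stay at or below 15.0.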

How the data were processed

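PAX5 ChIP-seq of 1 NALM6 sample was compared with 1 input control. The submitters' processing notes name BWA and hg19. Peaks were called by MACS2 2.1.1.20160309 on pooled ChIP reads and a control file named as combined, with a q-value limit of 0.05 and reads extended to 225 bp, per the file headers. How many libraries were pooled, and how reads with several matches were placed, the sources used here do not give. The deposited columns used are the pileup signal scaled to control depth, the fold ratio over control and the −log10 p and q values, all made by the authors. A second deposited list gives positions after a cleaning step of unstated content.

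ChIP reads were recovered as pileup over the scale (100% whole within 0.005) and the control background as (pileup + 1) / fold − 1, from which the deposited −log10 p was recomputed within 0.05 for 100% of peaks. A summit belonged to a window from its first to its last base. Flanks were 500 kb per side, clusters runs of at least 3 summits in the locus with gaps of 10 kb or less. For the share of all peaks, runs were not cut at window borders. Chromosome densities use the span from first to last summit. Densities carry exact Poisson 95% intervals, ratios the interval of an exact conditional binomial share, and shares Clopper-Pearson intervals. Counts of 0 allow 3 counts, a limit below the upper bound of the Poisson 95% interval. Named sites are the 5 highest folds, the clusters and the widest peak of each locus. Sites next to window borders and either side of the longest IGH gap were added after the values were seen. The members and lists were chosen with earlier results of these data known. Parts of loci were set by hand from the known hg19 layout, not from an annotation. Steps were tested on simulated peaks. No sequence is shown, since the hg19 genome was not used here. Tools were scipy 1.17.1 and pandas 2.3.3 on numpy 2.4.6, with matplotlib 3.10.9 for figures, under Python 3.11.15.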

Additional observations from a re-analysis of the deposited data

How the results depend on the processing

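The density ratio of immunoglobulin over T-cell receptor loci, 3.50, lay between 2.35 and 5.29, with intervals above 1, in the cleaned list, after merging peaks within 500 bp, with windows widened by 50 kb, by any overlap, with the VPREB1 stretch, and without IGH, IGK, IGL, TRB or TRG. The cleaned list and the rule of any overlap held the same peaks in the windows, so their value repeats the 3.50 and says nothing on its stability. The ratio was 2.47 (1.08 to 6.59) with each run of peaks counted once, an alternative chosen after seeing the data. It was 2.07 (0.761 to 7.04) for folds of at least 5 and 0.865 (0.220 to 4.03) in the top 10% by −log10 q. Both of these last intervals include 1 and 3.50, so no direction was resolved for stronger sites. Without TRA no T-cell receptor peak is left. Immunoglobulin density was then 5.35 times the limit of 3 peaks over the group, a value without an interval. For folds of at least 5, density was 4.76 per Mb in IGH, 0 in IGK, 17.3 in IGL and 5.32 in TRA with TRD, and in the top 10% by q 1.59, 0, 5.75 and 4.26, both by construction with fewer peaks. No cluster peak was left (0 in IGH, IGL and TRA with TRD) under either rule. Counting runs once gave 12.7 per Mb in IGH and 20.7 in IGL. Peaks in clusters, 14 in IGL and 3 in TRA with TRD, became 22 and 6 in widened windows, 3 and 0 at a gap of 5 kb and 28 and 5 at 20 kb. Ranked by reads, the leading IGH site was 106284488 (fold 10.9). The share of strong peaks in IGH was 32.5% at a fold of 4 and 5% at 7, and in IGL 8.11% at 7, against 46.3% of all peaks at 4 and 7.94% at 7, so that the higher share of IGL at a fold of 5 was not seen at 7. The density of IGH over its flank, 0.756 (0.435 to 1.35), moved to 1.51 (0.870 to 2.70), with 1 inside both intervals. For the second value the far side was counted as 500 kb without peaks, also chosen after seeing the data. That length was not checked against the chromosome. In all, 96 values stayed within their interval, count range or leading site, among them some named above. Part of these could not have moved, since loci without peaks stay at 0 in any smaller list and the cleaned list keeps every summit of the loci. The count is therefore no measure of stability. No paired analysis was possible because each group has 1 sample. Strong sites were few, with 3 immunoglobulin and 1 T-cell receptor peak at a fold of at least 10. Neither sample has a replicate, and depth was not varied.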
